A study of Homo sapiens with 6 samples.

Results

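Expression of 10 genes of the antioxidant response and of the defence against ferroptosis was examined in U2OS cells with and without silencing of SQLE, which encodes squalene epoxidase, an enzyme of cholesterol synthesis. The genes were NFE2L2, NQO1, HMOX1, GCLM, GCLC, TXNRD1, SRXN1, GPX4, AIFM2 and FTH1, chosen by name through their Ensembl identifiers from the 19937 genes of the count table. All 10 were in the table and all 10 passed the filter on low counts. U2OS cells are a long-established line from a human osteosarcoma. The 6 libraries of poly(A) RNA were 3 of cells with the genotype SQLE-shRNA (shSQLE) and 3 of cells with a scrambled hairpin (shControl). Both groups carried their hairpin in the pGIPZ plasmid, were infected with lentivirus packaged in HEK293T cells, and were kept under puromycin at 2 µg/mL for 2 weeks, so that vector and selection were common to them. The shSQLE libraries came from 1 hairpin against SQLE, and the sources used here do not say which of the tested hairpins it was. Nor is it stated there that the 3 libraries of each group came from separate cultures, so that p-values measure the spread between these libraries, which may be technical.

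NRF2, the protein made from NFE2L2, is a transcription factor that KEAP1 binds and hands to degradation in unstressed cells. When electrophiles or oxidants modify KEAP1, NRF2 accumulates, pairs with small MAF proteins and binds antioxidant response elements near genes for quinone reduction, haem breakdown, glutathione synthesis and thioredoxin reduction. Ferroptosis is a form of cell death that follows iron-dependent peroxidation of membrane lipids. It is held back by GPX4, which uses glutathione to reduce lipid hydroperoxides, by AIFM2 (FSP1), which regenerates reduced coenzyme Q10, and by ferritin, which stores iron in a form that does not react.

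The antioxidant response element holds the core TGACNNNGC, and this sequence was searched on both strands of the RefSeq promoters (GRCh38.p14), from 250 bases before to 50 bases after each start. The promoter table matched 8 of the 10 genes, with 12 promoters, and HMOX1 and FTH1 had no entry. The core was found in 4 of these 12 promoters and in 4687 of all 35116 promoters (13.3%). The 4 promoters belonged to GCLM, AIFM2 and TXNRD1, and their matches are shown with 10 bases on each side, in the direction of the gene, with the core in capitals. Where the capitals begin with GC and end with TCA, the core lies on the opposite strand.
GCLM (chr1:93909446-93909474, minus strand): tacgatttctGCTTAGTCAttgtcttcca
AIFM2 (chr10:70132829-70132857, minus strand): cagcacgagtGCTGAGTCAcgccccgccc
TXNRD1 first match (chr12:104215670-104215698, plus strand): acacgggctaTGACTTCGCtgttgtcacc
TXNRD1 second match (chr12:104215761-104215789, plus strand): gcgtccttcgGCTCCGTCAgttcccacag
TXNRD1 other promoter (chr12:104286920-104286948, plus strand): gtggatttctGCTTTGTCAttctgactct

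The centre of the match was 30 bases before the start in GCLM, 18 bases before it in AIFM2, and 95 and 4 bases before it in the first promoter of TXNRD1. In the other promoter of TXNRD1 it was 98 bases before the start. The looser letters TGANNNNGC, which include every match to the core, were found in 6 of the 12 promoters and in 41.8% of all promoters. Among a list of other known NRF2 targets, the core was found in 9 of 28 promoters. A match is only a description of these letters in this window, and no match says only that the window lacks them.

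Library totals ranged from 12212378 to 14393292 counts, and mitochondrial genes took 5.76% to 7.74% of them. SQLE, the silenced gene, had 1348.7, 1867.4 and 1923.6 normalized counts in shControl 1, 2 and 3, and 229.1, 204 and 218.9 in shSQLE 1, 2 and 3. A normalized count is the count scaled to the mean effective library size. SQLE in shSQLE was at 12.7% of its shControl mean, with a log2 fold change of -2.98 (SE 0.17) and an adjusted p of 0.000299. Here and below, the adjusted p comes from the edgeR quasi-likelihood fit, adjusted by the Benjamini-Hochberg method over all 12450 genes tested, and a gene was called at an adjusted p under 0.05. The lineage markers VIM, SPARC, RUNX2 and COL1A1 were detected, of which COL1A1 was called lower in shSQLE (log2 fold change -0.65, adjusted p = 0.0452, a call that was lost without shControl 2, shControl 3 or any 1 shSQLE library), whereas SP7 had no counts and ALPL, BGLAP and COL1A2 were close to 0. Of 8 markers of other cell types, PTPRC and CD3E were at 0 and only EPCAM (means of 51.9 and 68.6 normalized counts in shControl and shSQLE) and PECAM1 (12.9 and 4) passed the filter on low counts, with neither called.

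shControl 1 stood apart from the other controls. Its counts differed from those of shControl 2 by 51.6 times the sampling variance (chi-square per degree of freedom), against 2.77 between shControl 2 and 3 and 25.5 between shControl 1 and shSQLE 2. The shSQLE libraries also differed among themselves, by 3.33 between shSQLE 1 and 2, 9.49 between shSQLE 1 and 3 and 15.3 between shSQLE 2 and 3. The shift of shControl 1 from the mean of shControl 2 and 3 moved with base composition and transcript length. Its median was -0.55 on the log2 scale in the lowest quartile of GC content and 0.53 in the highest, and it was 0.47 in the quartile of the shortest transcripts and -0.43 in that of the longest. The results below are therefore given for all 6 libraries, without shControl 1, and with offsets that take out smooth trends on GC content and length within each library. Leaving out shControl 1 does not take out the spread among the shSQLE libraries.

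None of the 10 genes was called between shSQLE and shControl when all 6 libraries were used, and none had an unadjusted p under 0.05. Of all genes tested, 3.21% were called (2.84% lower and 0.369% higher in shSQLE), and 14.7% had an unadjusted p under 0.05. DESeq2, run as an alternative, called 5.86% of all genes and again none of the 10. The groups overlapped for all 10 genes, while they did not overlap for 22.1% of all genes. The median log2 fold change of the 10 genes was 0.02, beside -0.01 for all genes tested, with 4 genes below 0 and 6 above. In bulk RNA, a change in some of the cells and a smaller change in every cell cannot be told apart. The extremes were GCLC, at -0.25, and HMOX1, at 0.63, as the plot of values by library shows.

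**Figure D1:**
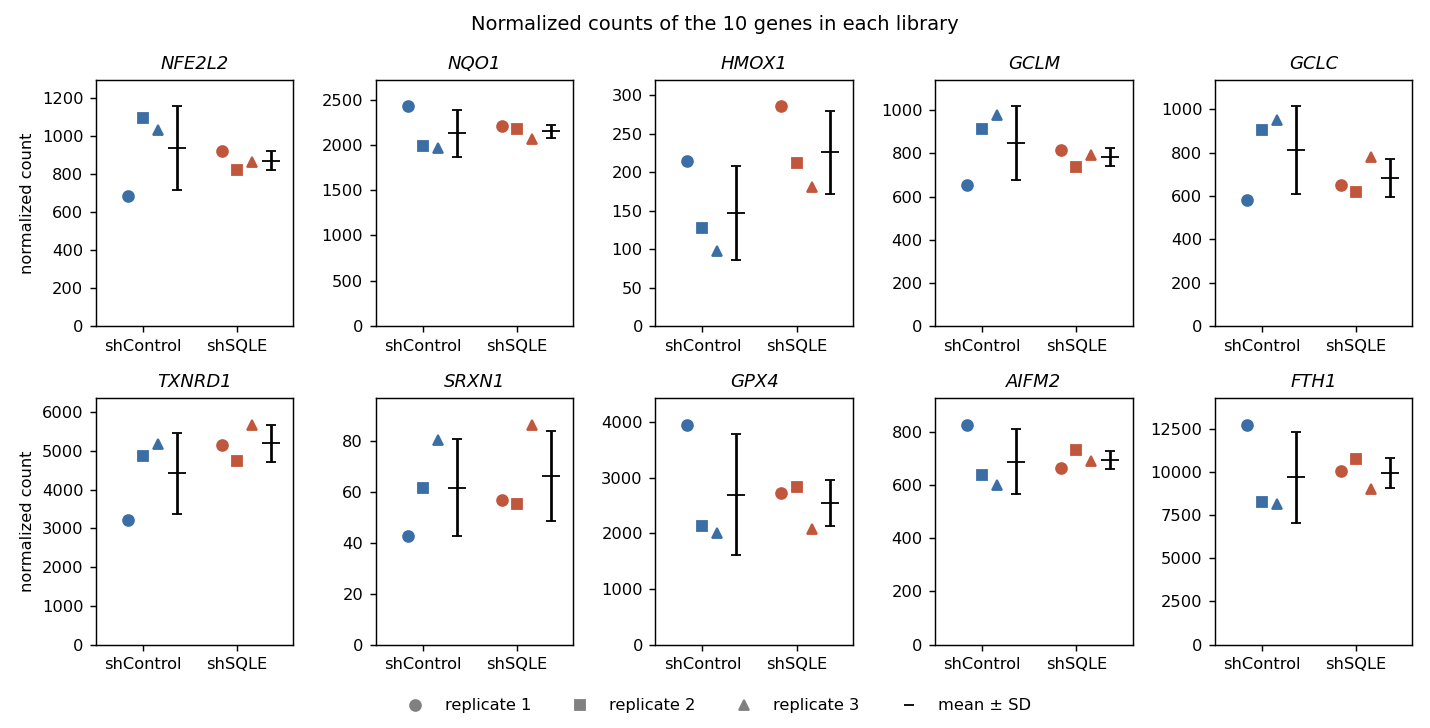
Normalized counts of the 10 genes (y axis, starting at 0) in each shControl and shSQLE library (x axis, points shaped by replicate), with the mean ± SD of 3 libraries in black. shControl 1 lies outside the other 2 controls in every panel, below them for NFE2L2, GCLM, GCLC, TXNRD1 and SRXN1 and above them for NQO1, HMOX1, GPX4, AIFM2 and FTH1.

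NFE2L2 (ENSG00000116044, chr2:177218667-177392756 on the minus strand of hg38), which encodes NRF2 itself, had 683.6, 1095.1 and 1032 normalized counts in shControl 1, 2 and 3. In shSQLE 1, 2 and 3 it had 922.4, 823 and 865.4. All 3 shSQLE values lay between the lowest and the highest control. The log2 fold change was -0.11 (SE 0.18, 95% interval -0.52 to 0.31, adjusted p = 0.864). A two-sided exact permutation test of the means, which cannot go below p = 0.1 with 3 libraries against 3, gave p = 0.7. Most of what is known of NRF2 control acts on the protein, which was not measured in these libraries.

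NQO1 (ENSG00000181019, chr16:69706996-69726668, minus strand), a quinone reductase and a widely used readout of NRF2, was the most even of the 10 genes across libraries. It had 2428.4, 1985 and 1966.8 normalized counts in shControl 1, 2 and 3, and 2209.1, 2175.2 and 2064.9 in shSQLE 1, 2 and 3. The group means were 2126.7 ± 261 and 2149.7 ± 75.4 (SD, n = 3 each). The log2 fold change was 0.02 (SE 0.12, 95% interval -0.26 to 0.29, adjusted p = 0.974).

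HMOX1 (ENSG00000100292, chr22:35380361-35394214, plus strand), which breaks haem down to biliverdin, carbon monoxide and iron, had the largest fold change of the 10. Its normalized counts were 214.8, 127.5 and 98.1 in shControl 1, 2 and 3, and 285.9, 211.9 and 180.9 in shSQLE 1, 2 and 3. Only shControl 1 reached into the shSQLE range, and each shSQLE library was above both other controls. The shSQLE mean was 154% of the shControl mean, with a log2 fold change of 0.63 (SE 0.30, 95% interval -0.06 to 1.33, p = 0.0689, adjusted p = 0.398 by edgeR), and the exact permutation test gave p = 0.3. HMOX1 varied more within groups than any other gene of the 10 in shControl, with a coefficient of variation of 41.3% there and 23.9% in shSQLE.

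GCLM and GCLC encode the modifier and the catalytic subunit of glutamate-cysteine ligase, the enzyme of the limiting step of glutathione synthesis. GCLM (ENSG00000023909, chr1:93885199-93909456, minus strand) had 654.7, 914.3 and 977 normalized counts in shControl 1, 2 and 3, and 816.6, 736.3 and 793.5 in shSQLE 1, 2 and 3. The 3 shSQLE values fell inside the control range, below shControl 2 and 3 and above shControl 1, with a log2 fold change of -0.12 (SE 0.16, adjusted p = 0.821). GCLC (ENSG00000001084, chr6:53497341-53616970, minus strand) had 580.8, 905.2 and 952.5 in shControl 1, 2 and 3, and 650.2, 618 and 782.2 in shSQLE 1, 2 and 3. This was the same arrangement, with a log2 fold change of -0.25 (SE 0.20, 95% interval -0.71 to 0.21, adjusted p = 0.659). The ratio of GCLM to GCLC counts within a library was 1.05 ± 0.0636 in shControl and 1.15 ± 0.125 in shSQLE (SD, n = 3 each), with overlapping groups and an exact permutation p of 0.3.

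TXNRD1 and SRXN1 act in the thioredoxin system. TXNRD1 (ENSG00000198431, chr12:104215779-104350307, plus strand), the cytosolic thioredoxin reductase and the gene with the 3 core matches shown above, had 3226.4, 4873.4 and 5187.3 normalized counts in shControl 1, 2 and 3, and 5165.2, 4739.8 and 5682.8 in shSQLE 1, 2 and 3. The shSQLE libraries spread around shControl 2 and 3, and shControl 1 was far below all others. The log2 fold change was 0.23 (SE 0.18, 95% interval -0.19 to 0.65, adjusted p = 0.657). SRXN1 (ENSG00000271303, chr20:646615-653200, minus strand), sulfiredoxin, which repairs overoxidized peroxiredoxins, was low, with 42.7, 61.5 and 80.4 normalized counts in shControl 1, 2 and 3 and 56.8, 55.2 and 86.3 in shSQLE 1, 2 and 3. Its log2 fold change was 0.09 with a wide interval of -0.56 to 0.75 (SE 0.28, adjusted p = 0.927). In GENCODE v44, 2292 of the 2528 exon bases of SRXN1 are shared on the same strand with a second gene, ENSG00000270299, which had no counts in any library, so that the SRXN1 value depends on how shared reads were assigned.

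GPX4 reduces lipid hydroperoxides, and AIFM2 regenerates reduced coenzyme Q10. GPX4 (ENSG00000167468, chr19:1103982-1106791, plus strand) had 3957.3, 2138.7 and 2002.1 normalized counts in shControl 1, 2 and 3, and 2732.9, 2825.7 and 2070 in shSQLE 1, 2 and 3. The controls themselves ranged widely, and shSQLE 3 was close to shControl 2 and 3 while the other shSQLE libraries were above them. The log2 fold change was -0.09 (SE 0.27, 95% interval -0.70 to 0.53, adjusted p = 0.929). AIFM2 (ENSG00000042286, chr10:70098223-70132934, minus strand) had 826.8, 636.6 and 600.3 in shControl 1, 2 and 3, and 664.9, 731.3 and 689.7 in shSQLE 1, 2 and 3. Its group means of 687.9 ± 122 and 695.3 ± 33.6 differed by less than either SD, with a log2 fold change of 0.02 (SE 0.15, 95% interval -0.32 to 0.36, adjusted p = 0.98).

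FTH1 (ENSG00000167996, chr11:61959718-61967634, minus strand), the ferritin heavy chain, which oxidizes iron for storage, had 12773.8, 8255.5 and 8138 normalized counts in shControl 1, 2 and 3, and 10068.1, 10805.3 and 9053 in shSQLE 1, 2 and 3. All shSQLE libraries were above shControl 2 and 3 and below shControl 1. The log2 fold change was 0.04 (SE 0.19, 95% interval -0.39 to 0.47, adjusted p = 0.96). The ratio of FTH1 to FTL, the light chain, was 0.831, 0.875 and 0.943 in shControl 1, 2 and 3, and 0.73, 0.729 and 0.802 in shSQLE 1, 2 and 3. These groups did not overlap, and the exact permutation test reached its smallest possible p of 0.1. How often ratios of other gene pairs separate the groups was not counted. Neither FTH1 nor FTL was called in the fit to all libraries. The annotation names 25 pseudogenes of FTH1, and the treatment of reads that map to several places is not given in the sources used here, so that the FTH1 level is uncertain, as is that of SRXN1. Without a stated strand setting, reads from an overlapping gene on the other strand cannot be told apart either, which touches 575 exon bases of NQO1, 252 of GCLC, 190 of NFE2L2, 177 of FTH1 and 12 of AIFM2.

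Levels of different genes were compared as CPM per kb, the library-scaled count divided by transcript length. FTH1 was highest, at 607 ± 109 CPM per kb over the 6 libraries (SD), followed by GPX4 at 228 ± 64.7, TXNRD1 at 92.5 ± 16.2 and NQO1 at 62.9 ± 5.08. NFE2L2 was at 27.4 ± 4.49, and AIFM2, GCLC and GCLM followed at 16.4 ± 1.89, 14.7 ± 3.06 and 12.4 ± 1.78. HMOX1 and SRXN1 were lowest, at 8.9 ± 3.21 and 1.87 ± 0.483 CPM per kb. The SRXN1 level depends on how reads shared with the second gene at its locus were assigned. In this order, the ranges over the 6 libraries overlapped between TXNRD1 and NQO1, between AIFM2 and GCLC, between GCLC and GCLM, and between GCLM and HMOX1. The other neighbours did not overlap, so that the iron store and the lipid peroxidase were the most abundant of these transcripts in every library.

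**Figure D2:**
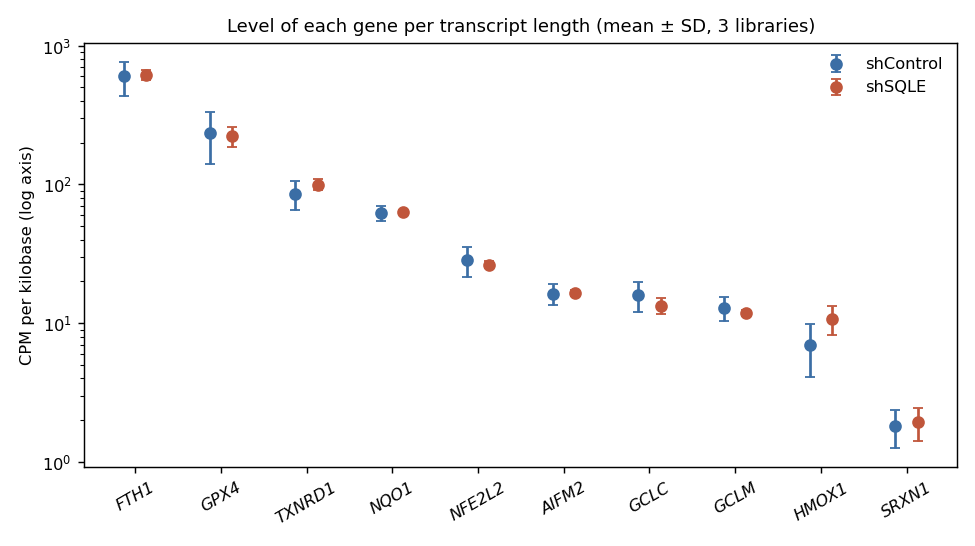
Level of each gene in CPM per kilobase of canonical transcript (log y axis) for the 10 genes, ordered by level (x axis), as mean ± SD of 3 shControl (blue) and 3 shSQLE (red) libraries. The levels run from 607 for FTH1 to 1.87 for SRXN1, and the SD bars of both groups overlap for every gene.

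For all 10 genes, the value of shControl 1 lay outside those of shControl 2 and 3 by more than the gap between these, as it did for 77.9% of all genes tested. Its shift from the other controls on the log2 scale was -0.64 for NFE2L2, -0.53 for GCLM, -0.68 for GCLC, -0.64 for TXNRD1 and -0.69 for SRXN1. It was 0.30 for NQO1, 0.93 for HMOX1, 0.93 for GPX4, 0.42 for AIFM2 and 0.64 for FTH1. GPX4 had the highest GC content (62.3%) and the shortest transcript (851 nt) of the 10, and GCLM the lowest GC content (37.3%) and the longest transcript (4883 nt). For 7 of the 10 genes, all but HMOX1, TXNRD1 and SRXN1, the 3 shSQLE values lay inside the control range, against 37.5% of all genes.

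With the GC and length offsets, 2 of the 10 genes were called, both higher in shSQLE, in a fit that called 20.8% of the 12447 genes tested (12.1% higher and 8.68% lower). HMOX1 then had a log2 fold change of 0.65 (SE 0.18, 95% interval 0.25 to 1.05, adjusted p = 0.0297), and TXNRD1 had one of 0.30 (SE 0.09, 95% interval 0.11 to 0.50, adjusted p = 0.0339). For both genes, and for none of the others of the 10, the groups no longer overlapped. The share of all genes without overlap was counted only for values as normalized, where it was 22.1%. All genes together had a median of 0.06 in the fit with offsets, so that both fold changes stand above a small common shift. The spread of GPX4 within groups dropped from an SD of 0.42 to 0.04 on the log2 scale, and its fold change was -0.05 with an interval of -0.17 to 0.07. The shift of shControl 1 was then 0 for GPX4 and 0.36 for HMOX1, but it was larger than before for SRXN1, at -0.84, and for NQO1, at 0.48.

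**Figure D3:**
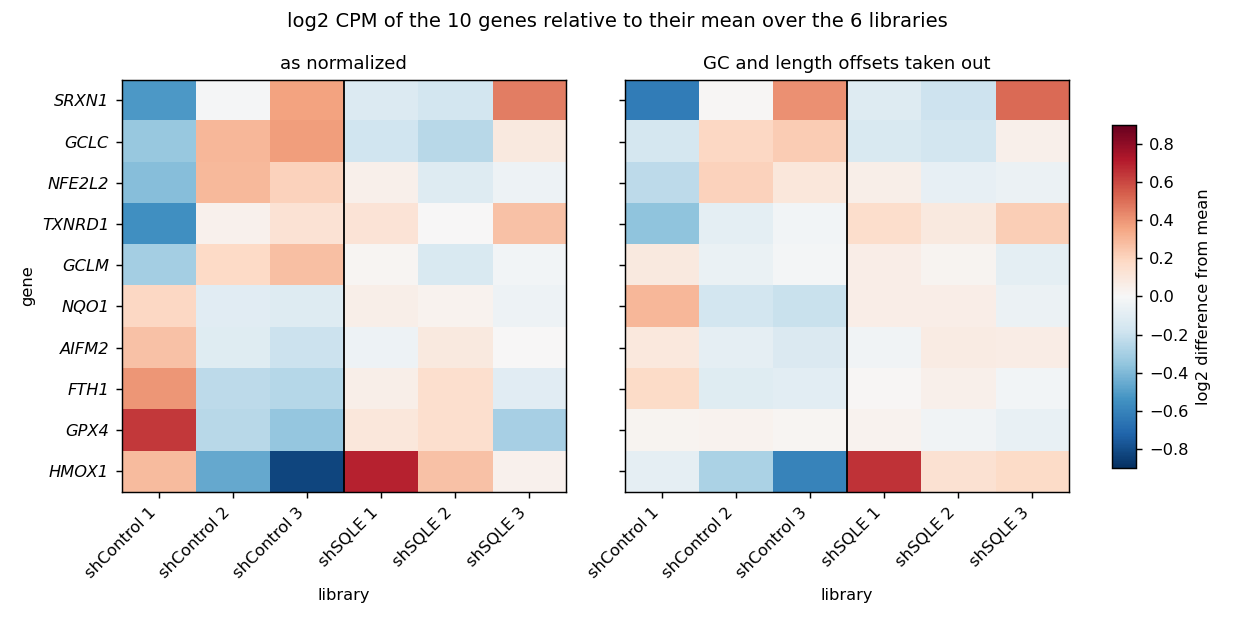
Difference of each gene's log2 CPM from its mean over the 6 libraries (colour scale from blue, below, to red, above) for the 10 genes (rows) in each library (columns), as normalized on the left and with the GC and length offsets taken out on the right. The shControl 1 column departs from 0 for every gene on the left, and on the right it fades for GPX4 and GCLM and deepens for SRXN1 and NQO1, while HMOX1 stays above its mean in all shSQLE libraries.

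Without shControl 1, 5 of the 10 genes were called, in a fit that called 33.9% of the 12570 genes tested (18.3% lower and 15.6% higher). NFE2L2, GCLM and GCLC were lower in shSQLE, with log2 fold changes of -0.29 (adjusted p = 0.0237), -0.27 (adjusted p = 0.0317) and -0.44 (adjusted p = 0.0074). HMOX1 was higher, at 1.00 (95% interval 0.58 to 1.43, adjusted p = 0.00258), and so was FTH1, at 0.28 (adjusted p = 0.0234). GPX4 was at 0.30 (adjusted p = 0.0639), on the other side of 0 from its value with all libraries. With the offsets and without shControl 1, a fit added after seeing the data that called 36.9% of 12566 genes (12.8% lower and 24.2% higher), again 5 of the 10 were called. In it NFE2L2 (-0.18) and GCLC (-0.29) were lower, and NQO1 (0.21), HMOX1 (0.79) and TXNRD1 (0.21) were higher. Neither GCLM (0.05) nor FTH1 (0.12, adjusted p = 0.0559) was called there. Of the 10 genes, HMOX1 was thus the one called in each of these 3 fits. GCLC and NFE2L2 were called in both fits that left out shControl 1. These fits share most of their libraries, so that their calls are not independent. The share of all genes called in more than 1 of them was not counted, so that a repeated call cannot be set against a background.

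**Figure D4:**
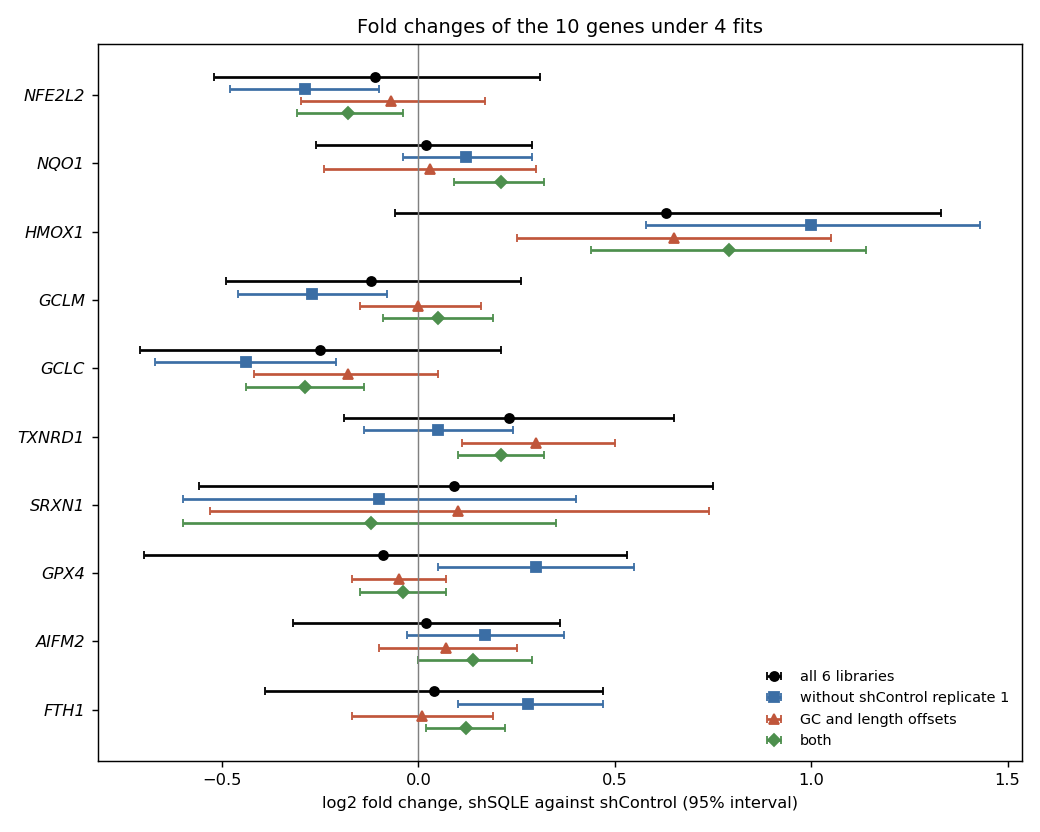
Log2 fold change of shSQLE against shControl (x axis, points) with its 95% interval (bars) for the 10 genes (y axis) in 4 fits: all 6 libraries (black), without shControl 1 (blue), with GC and length offsets (red) and both (green). Every black interval crosses 0, and HMOX1 is the gene whose other 3 intervals all lie above 0.

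HMOX1 was above 0 in all 14 other settings (other size factors and filters, DESeq2, a replicate block, the offsets and each library left out), with log2 fold changes from 0.42 (without shControl 3) to 1.00 (without shControl 1), and adjusted p-values from 0.00258 to 0.844. GCLC was below 0 in all 14, from -0.44 to -0.11, and TXNRD1 above 0 in all 14, from 0.05 to 0.37. The values of SRXN1, GPX4, NQO1 and AIFM2 were not called in any of these settings.

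For 9 of the 10 genes, all but FTH1, the other gene of the pathway lists with the most similar pattern is given, found among 114 candidates, by the root mean square difference of centred log2 CPM over the 6 libraries. The closest pairs were NQO1 with CBR1 (0.0228), a carbonyl reductase, and GCLC with LRP8 (0.034), a lipoprotein receptor. GCLM lay closest to SESN1 (0.0479), TXNRD1 to NCOA4 (0.0513), AIFM2 to KEAP1 (0.0517), GPX4 to PRDX5 (0.0585) and NFE2L2 to ME1 (0.0642). SRXN1 had a less close partner in TFRC (0.143), and HMOX1 had none that was close, since its nearest, the glutamine carrier SLC1A5, was at 0.258. Among the 10 genes themselves, NFE2L2 and GCLM (0.0658) and NQO1 and AIFM2 (0.0687) were most alike. All these patterns carry the shift of shControl 1.

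The wider pathway was described with 9 lists, holding 114 tested genes besides the 10. Of these, 3 were called, all lower in shSQLE, against 2.84% of all genes called lower, so that the count is close to the background. The median log2 fold change was 0, with 57 genes on each side. The groups did not overlap for 23 genes that were lower and 7 that were higher, against 12.1% and 10% of all genes. At an unadjusted p under 0.05 there were 18 lower and 4 higher, against 9.89% and 4.83%. Without shControl 1, 25 of the 114 genes were called lower and 27 higher, against 18.3% and 15.6% of all genes, and with the offsets 21 lower and 17 higher, against 8.68% and 12.1%. In the counts for single lists that follow, the shares of all genes are 14.7% at an unadjusted p under 0.05, 5.86% called by DESeq2 and 33.9% called without shControl 1. The offsets called 20.8% of all genes. They called 13 of 27 other NRF2 targets, 4 of 11 NRF2 control genes and 4 of 12 genes of glutathione synthesis and turnover. They also called 3 of 18 thioredoxins and peroxiredoxins, 2 of 6 other peroxidases and related enzymes, and 6 of 19 other ferroptosis defence genes. For the remaining lists this count is not given here. The list medians are small, and leaving out 1 library turned the sign for 4 lists, with ranges of -0.11 to 0.04 for NRF2 control genes, -0.06 to 0.06 for thioredoxins and peroxiredoxins, -0.08 to 0.03 for iron genes and -0.29 to 0.27 for metallothioneins.

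All 3 genes that fell were in the list of other NRF2 targets, which held 27 tested genes with a median of 0.08. DESeq2 called 5 genes of this list, and 14 were called without shControl 1, against 5.86% and 33.9% of all genes. AKR1C3, an aldo-keto reductase that reduces ketosteroids and prostaglandins, had 232.1, 194.4 and 192.3 normalized counts in shControl 1, 2 and 3, and 56.8, 64.1 and 62.7 in shSQLE 1, 2 and 3. Its log2 fold change was -1.75 (SE 0.16, adjusted p = 0.00162). ABCC3, a transporter of organic anions and conjugates, had 212.5, 195.3 and 183.4 in shControl 1, 2 and 3, and 77.4, 71.9 and 61.7 in shSQLE 1, 2 and 3, with a log2 fold change of -1.48 (SE 0.16, adjusted p = 0.00276). For both genes the groups were far apart, with little spread inside them, and both were called in all 14 other settings. AKR1C1 had 12, 12 and 17 counts in shControl and 2, 0 and 0 in shSQLE (adjusted p = 0.0246), which is at least 4.61-fold lower when 3 counts per library are taken as the floor. It was called in 1 of 6 fits that left out a library, and its reads are hard to tell from those of AKR1C2, so that it is uncertain. SLC7A11, the cystine carrier, had a log2 fold change of 0.23 (adjusted p = 0.695), FTL one of 0.26 (adjusted p = 0.692) and PRDX1, the most abundant gene of the peroxiredoxin list, one of 0.17 (adjusted p = 0.657). With the offsets, SLC7A11 was at 0.43 (adjusted p = 0.00582) and FTL at 0.25 (adjusted p = 0.012), whereas without shControl 1 they were at 0.05 (adjusted p = 0.786) and 0.56 (adjusted p = 0.00222).

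**Figure D5:**
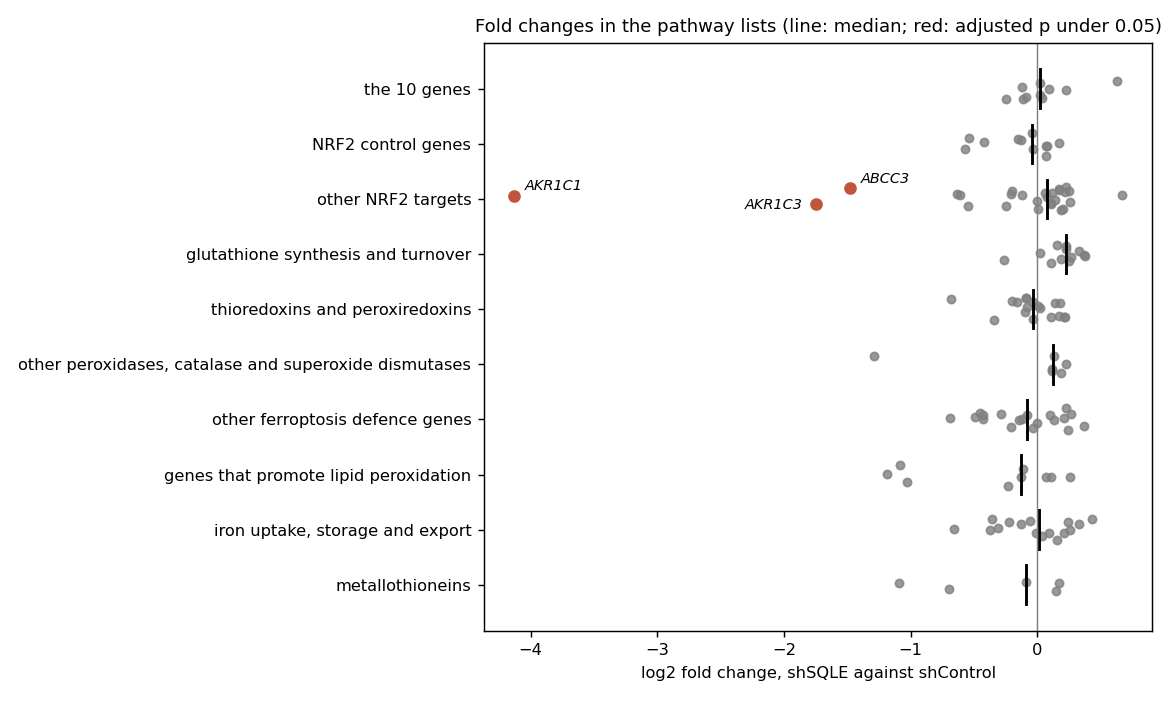
Log2 fold change of shSQLE against shControl (x axis) for each tested gene (points) of the 10 genes and of 9 pathway lists (y axis), with the median of each list as a black line and genes past an adjusted p of 0.05 in red. The medians run from -0.13 for genes that promote lipid peroxidation to 0.23 for glutathione synthesis and turnover, and the red points are AKR1C1, AKR1C3 and ABCC3.

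None of the 11 genes that control NRF2 was called by edgeR or DESeq2, 2 had an unadjusted p under 0.05, and their median was -0.04. Without shControl 1, 3 of them were called. SQSTM1, the autophagy receptor p62 that sequesters KEAP1, had means of 7758.8 ± 1290 in shControl and 5780.6 ± 405 in shSQLE, without overlap, and a log2 fold change of -0.42 (adjusted p = 0.187). With the offsets it was at -0.38 (adjusted p = 0.0017) and without shControl 1 at -0.28 (adjusted p = 0.0184). BTRC, a ligase adaptor for NRF2, was at -0.57 (adjusted p = 0.204), BACH1, a repressor at antioxidant response elements and of HMOX1 in particular, at -0.54 (adjusted p = 0.421), and KEAP1 at 0.07 (adjusted p = 0.884).

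Glutathione synthesis and turnover showed the highest median of the lists, 0.23, with 11 of 12 tested genes above 0 and 1 below, against 6030 of all 12450 genes above 0. GCLC (-0.25) and GCLM (-0.12), described above, are not counted in this list. None was called by either tool, 1 had an unadjusted p under 0.05, and 4 were called without shControl 1. SLC1A5 was at 0.38 (adjusted p = 0.334), GSS, glutathione synthetase, at 0.37 (adjusted p = 0.424), and SLC3A2, the heavy chain of the cystine carrier, at 0.27 (adjusted p = 0.502). Of 18 thioredoxins, peroxiredoxins and related genes none was called by edgeR, 1 by DESeq2 and 6 without shControl 1, with 1 at an unadjusted p under 0.05 and a median of -0.03. TXNIP, the inhibitor of thioredoxin, was at -0.68 (adjusted p = 0.0721) and GLRX, glutaredoxin, at -0.34 (adjusted p = 0.426). In the list of other peroxidases, catalase and superoxide dismutases, with 6 tested genes and a median of 0.13, none was called by either tool, 1 had an unadjusted p under 0.05, and 2 were called without shControl 1. There the secreted peroxidase GPX3 was at -1.29 (adjusted p = 0.0895), CAT at 0.23 (adjusted p = 0.497) and GPX1 at 0.12 (adjusted p = 0.889). The GPX3 value rests on low counts, with 21, 19 and 16 in shControl 1, 2 and 3 and 9, 7 and 7 in shSQLE 1, 2 and 3.

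The other ferroptosis defence genes had a median of -0.08, with none of 19 called by edgeR, while 5 were lower without overlap (12.1% of all genes) and 0 higher (10% of all genes). At an unadjusted p under 0.05 there were 4 (14.7% of all genes), DESeq2 called 3 (5.86%), and without shControl 1 there were 11 (33.9%). ACSL3, which activates monounsaturated fatty acids, had means of 1759.4 ± 339 in shControl and 1087.3 ± 55 in shSQLE, with a log2 fold change of -0.69 (adjusted p = 0.0602). SCD, the desaturase that makes monounsaturated fatty acids, had means of 14588 ± 1470 and 10831.8 ± 573, with a log2 fold change of -0.43 (adjusted p = 0.0997). MBOAT1, an acyltransferase for lysophospholipids, was at -0.49 (adjusted p = 0.0981). ACSL3 and SCD were called with the offsets, at -0.56 (adjusted p = 0.000705) and -0.35 (adjusted p = 0.00199), and also without shControl 1, at -0.85 (adjusted p = 1.18e-05) and -0.51 (adjusted p = 5e-04).

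Of 9 tested genes that promote lipid peroxidation none was called by edgeR, 1 by DESeq2 and 4 without shControl 1, with 3 at an unadjusted p under 0.05 and a median of -0.13. ALOXE3, an epidermis-type lipoxygenase, had means of 56.3 ± 2.48 in shControl and 27.5 ± 5.85 in shSQLE and a log2 fold change of -1.03 (adjusted p = 0.0506), and NOX4, an NADPH oxidase, was at -1.08 (adjusted p = 0.0663). NOX4 was low, with 26, 39 and 28 counts in shControl 1, 2 and 3 and 14, 14 and 16 in shSQLE 1, 2 and 3. ACSL4, which loads polyunsaturated fatty acids, was at -0.13 (adjusted p = 0.876), and PEBP1 at 0.26 (adjusted p = 0.48). Iron genes had a median of 0.02 with none of 16 called by either tool, 4 at an unadjusted p under 0.05 (14.7% of all genes) and 9 called without shControl 1 (33.9% of all genes). Among them, the mitochondrial iron importer SLC25A37 was at -0.37 (adjusted p = 0.141), the iron chaperone PCBP1 at 0.33 (adjusted p = 0.162) and the transferrin receptor TFRC at 0.21 (adjusted p = 0.727). Metallothioneins, which bind zinc and copper, had a median of -0.09 over 5 tested genes, which became 0.27 without shControl 1, -0.29 without shControl 2 and 0.06 without shSQLE 3. None was called by edgeR, 1 by DESeq2 and 3 without shControl 1, and 1 had an unadjusted p under 0.05, with MT1F at -1.09 (adjusted p = 0.0943), MT1M at -0.70 (adjusted p = 0.601) and MT2A at 0.17 (adjusted p = 0.853). MT1M had 60, 20.8 and 18.6 normalized counts in shControl 1, 2 and 3, and 24.5, 18.7 and 16.4 in shSQLE 1, 2 and 3. Only shControl 1 was thus above the shSQLE range. Reads of MT1F and MT1M may be shared with other metallothioneins, which are near-identical copies.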

How the data were processed

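The deposited table holds raw read counts per gene for the 6 libraries. Per the labels and the submitters' processing notes, the authors sequenced 151 bp pairs and used fastp 0.20.0, STAR 2.7.9a and featureCounts 2.0 with hg38. The annotation release, the strand setting and the treatment of reads that map to several places are not given in the sources used here. From these counts, filterByExpr of edgeR 4.0.16 (R 4.3.3, with limma 3.58.1) left 12450 genes, TMM factors scaled the libraries, and the quasi-likelihood test compared shSQLE with shControl, without covariates, at a Benjamini-Hochberg adjusted p of 0.05. DESeq2, which the paper names, was run as an alternative in version 1.42.0. Levels used canonical transcript lengths of GENCODE v44. GC and length offsets were smooth fits within each library (mgcv 1.9.3). Log2 CPM used a prior count of 2. The groups come from the sample titles, and library totals ranged from 12212378 to 14393292 counts. Precision did not follow from these totals alone. At the same totals, the SE of GPX4 was 0.27 in the fit to all libraries and 0.05 with the offsets. Floors cover counting error only.

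The members and lists were chosen with earlier results of these data known. Named were the 10 genes, SQLE, up to 4 called genes of each list (otherwise the 2 with the smallest p and the 1 with the highest mean count), the partners SLC7A11, SLC3A2, FTL, KEAP1, BACH1, ACSL4 and TFRC, and each gene's most similar gene. A few of the genes named by this rule are not given in the text. SOD2 and TRIM16L matched no symbol of the table and were not used here. Further alternatives were a replicate block, fits without 1 library each, no or stricter filters, and RLE, upper-quartile or no size factors. The script of the fit was tested on simulated data, from which no value is given. The simulated libraries held none set apart like shControl 1, so that the check does not cover this feature of the data.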

Additional observations from a re-analysis of the deposited data

How the results depend on the processing

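The number of genes called over all genes was 400 with all libraries, 730 with DESeq2, 2587 with the GC and length offsets, 109 to 4264 when a library was left out (4264 without shControl 1, 163 without shControl 2, 211 without shControl 3, and 109 without any 1 of the shSQLE libraries), and 4642 with the offsets and without shControl 1, an alternative chosen after seeing the data. Of the 10 genes, 0 were called with all libraries, 2 with the offsets, 0 to 5 when a library was left out (5 without shControl 1) and 5 in the added alternative. Their median log2 fold change was -0.03 to 0.08 when a library was left out and 0.08 in the added alternative.

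Signs turned for fold changes close to 0. With library size only, NQO1 and AIFM2 were both at -0.02. GCLM was at 0.00 with the offsets and 0.05 in the added alternative, where SRXN1 was at -0.12. When a library was left out, the log2 fold change ranged from -0.29 to 0.02 for NFE2L2, -0.03 to 0.12 for NQO1, -0.27 to 0.01 for GCLM, -0.13 to 0.34 for SRXN1, -0.25 to 0.30 for GPX4, -0.06 to 0.17 for AIFM2 and -0.07 to 0.28 for FTH1. The cause was not tested.

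Whether equal replicate numbers mark paired samples is not known. Deviations from the group means correlated at 0.14, -0.43 and 0.54 between same-numbered libraries. Between libraries of unequal number they correlated at -0.6 (shControl 1 with shSQLE 3) to 0.54 (shControl 1 with shSQLE 2). Values of like size in both sets cannot decide on pairing. A fit with the replicate number as a block called 396 genes and none of the 10, with HMOX1 at 0.67 (adjusted p = 0.1 by edgeR). It changed no call among the 10 genes. SQLE, AKR1C3 and ABCC3 were called in each of the 14 alternatives besides the added one. With 3 libraries a group and 1 control apart from the others, the 95% intervals of the 10 genes in the fit to all libraries reached down to -0.71 (GCLC) and up to 1.33 (HMOX1) on the log2 scale, and changes inside a gene's own interval are not excluded by it. COL1A1 lost its call also with either other filter and with the replicate block.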
